A study of Oncorhynchus mykiss with 32 samples.

Results

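The 7 clones described here are all transcripts of intracellular protein breakdown, out of the 9023 trout cDNA clones spotted on the array. The clones 1RT61L10_D_F05 and 1RT83D09_B_B05 both carry the description proteasome subunit beta type 7 (PSB7). The other 5 were chosen by the description given to them in the study's lists of transcripts: ECM29 (tcay0010.a.20), the ubiquitin-conjugating enzyme UB2E1 (1RT119E07_A_C04), the ligase components STUB1 (tcay0013.g.06) and FBXW2 (tcay0010.b.01), and tripeptidyl-peptidase 2 (TPP2, tcbk0023.g.05). Liver RNA of 32 rainbow trout was hybridized to nylon arrays, 1 array per liver, with 8 livers in each of 4 groups. The groups were a line selected for fatty muscle (F) fed a high-fat diet (F-HE) or a low-fat diet (F-LE), and a line selected for lean muscle (L) fed the same diets (L-HE and L-LE). By the labels the HE diet contained 23% and the LE diet 10% lipid, and all fish were fed from first feeding for 6 months. Each group was kept in 3 tanks, so that the diet was given to tanks and not to single fish, and each line is the product of a single divergent selection. The number that ends each condition label was taken as the tank of that liver.

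Proteins are marked for breakdown by ubiquitin, which is passed from an activating enzyme to a conjugating enzyme (E2) and, with the help of a ligase (E3) that recognizes the substrate, to the protein. Marked proteins are unfolded and cut into peptides inside the proteasome, a barrel of stacked rings whose catalytic sites lie on certain beta subunits, and cytosolic peptidases then shorten the peptides. In the liver this route turns over enzymes and misfolded proteins, beside the lysosome, and returns amino acids to metabolism.

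All 7 clones had a value on each of the 32 arrays. Levels are given on a log2 scale on which 0 is close to the median clone of an array (array medians of all clones ran from -0.03 to -0.01), and they are not compared between clones, since spots of different length bind label differently. The clones carry a name only because the study listed them as changed on these arrays. STUB1, FBXW2, TPP2 and the clone 1RT83D09_B_B05 came from its list for diet, ECM29 from its list for line, and UB2E1 and the clone 1RT61L10_D_F05 from both. Their difference in the contrast of that list is therefore a description and no independent evidence, while the other contrast was not used to choose them. In whole liver, fewer cells of a type and less RNA per cell cannot be told apart. Salmonid fish also keep many duplicated genes, and the sources used here do not say which copy a clone represents.

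The F-HE array on membrane 59 stood apart. Its median Spearman correlation with the other arrays was 0.161, against 0.828 to 0.967 for the other 31. A further 5 arrays had a median correlation under 0.9: the F-HE array on membrane 65, the F-LE array on membrane 62 and the L-LE arrays on membranes 53, 56 and 68. Results are given with all arrays and without membrane 59. Some, among them those where a call changed, are also given without all 6 of these arrays. That left 26 livers, namely 6 F-HE, 7 F-LE, 8 L-HE and 5 L-LE. Membrane 59 held the lowest of all 32 levels for the PSB7 clone 1RT61L10_D_F05, for UB2E1 and for STUB1, and the highest for TPP2. For FBXW2 it was above the other 7 F-HE livers, at 0.34 against -0.89 to 0.00, and for ECM29 and the PSB7 clone 1RT83D09_B_B05 it lay among them.

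**Figure D1:**
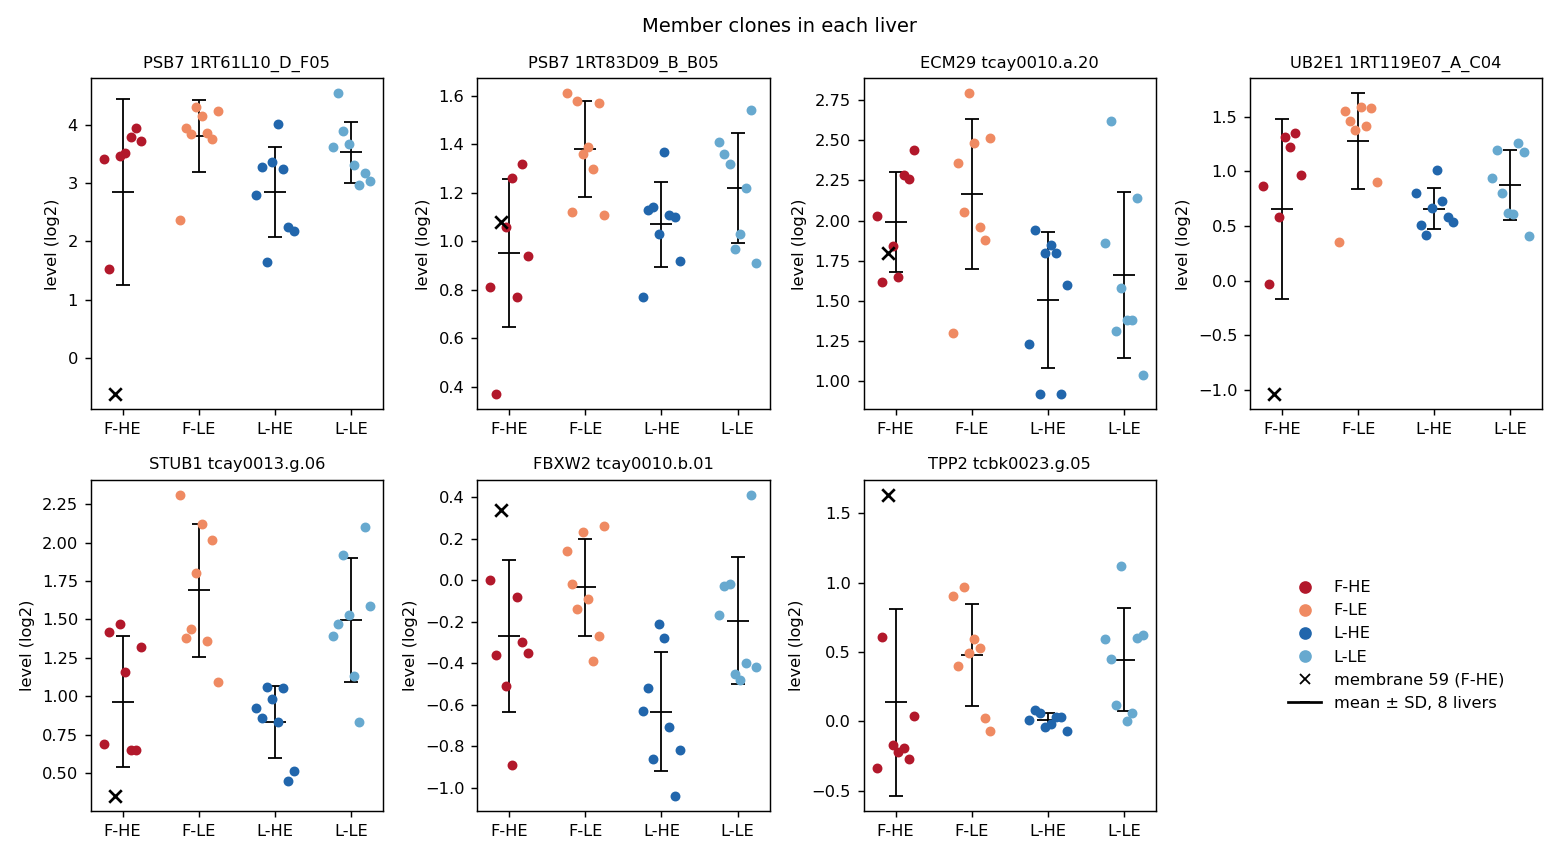
Level of each of the 7 clones (log2, vertical axis, with its own scale in each panel) in every liver of the F-HE, F-LE, L-HE and L-LE groups, with the mean and SD of the 8 livers. The cross marks the F-HE liver on membrane 59, which lies at -0.62 for the PSB7 clone 1RT61L10_D_F05 and at 1.63 for TPP2, outside the range of the other 31 livers.

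With the HE diet all 7 clones had a lower mean than with the LE diet, averaged over the lines, and 1 of them, STUB1, passed the test. The log2 differences between HE and LE ranged from -0.83 to -0.17, with a median of -0.39, against a median of -0.01 over the 7763 clones tested. A clone was called where its limma p-value, adjusted over all clones tested by the method of Benjamini and Hochberg, was under 0.15. For diet 0.245% of all clones were called (19 clones, of which 18 were lower with HE), beside 1 of the 7. Since 6 of the 7 were taken from the list for diet, this count is a description. Without membrane 59, STUB1 and TPP2 were called, beside 0.528% of all clones (41), and the median difference of the 7 was -0.38. Without the 6 arrays, STUB1, TPP2 and UB2E1 were called, beside 0.96% of all clones (74), and the median was -0.40.

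Between the lines no clone passed the test. The difference between F and L, averaged over the diets, ranged from 0.02 to 0.49 with a median of 0.16, and 0 of the 7 were called, like 0 of all clones (0% of 7763 clones, with 258 at an unadjusted p under 0.05). Without membrane 59, 0.0129% of clones (1 of 7759) were called for line and again none of the 7. No clone was called for the interaction of line and diet (0% of 7763 clones, with 523 at an unadjusted p under 0.05), and the interaction of the 7 ranged from -0.40 to 0.21 on the log2 scale.

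**Figure D2:**
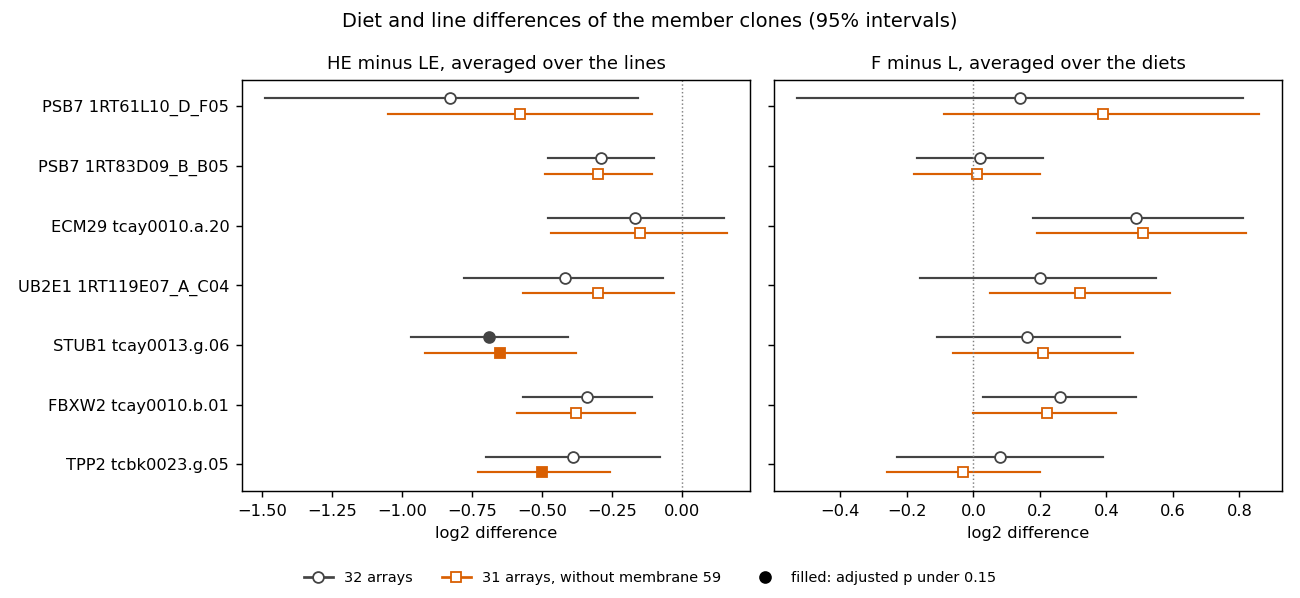
Log2 differences of the 7 clones between diets (HE minus LE, left) and between lines (F minus L, right), with 95% intervals, from all 32 arrays (circles) and from the 31 arrays without membrane 59 (squares). Filled symbols mark an adjusted p under 0.15, reached for diet by STUB1 with both sets of arrays and by TPP2 without membrane 59.

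STUB1, also known as CHIP, is a U-box ubiquitin ligase that binds the heat shock chaperones and marks their misfolded clients. Its level in F-HE livers had a lowest value of 0.35, a median of 0.93 and a highest of 1.47, and in F-LE livers 1.09, 1.62 and 2.31. In L-HE livers it ran from 0.45 (median 0.89) to 1.06, and in L-LE livers from 0.83 (median 1.5) to 2.10. The ranges overlapped within each line, but no HE liver of either line was above the median LE liver of its line, and 7 of the 8 L-LE livers were above the highest L-HE liver. With HE feeding STUB1 fell by 0.69 log2 units (standard error 0.137, 95% interval -0.97 to -0.41, adjusted p = 0.0282 by limma), a level 0.618 times that with LE. By p-value it ranked 4 of the 7763 clones for diet. Without membrane 59 the difference was -0.65 (adjusted p = 0.0129), and without the 6 arrays it was -0.58 (adjusted p = 0.0429).

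Within the lines the diet difference of STUB1 was -0.72 in F and -0.66 in L, and -0.61 and -0.55 without the 6 arrays. The F-HE mean was 0.97 ± 0.427 and the F-LE mean 1.69 ± 0.432 (SD, n = 8 livers each, two-sided exact permutation test, p = 0.00715), and without membrane 59 the F-HE mean was 1.05 ± 0.375 (n = 7, exact p = 0.0138). The L-HE mean was 0.83 ± 0.231 and the L-LE mean 1.49 ± 0.403 (n = 8 each, exact p = 0.00171). Of these exact tests 28 were run over the 7 clones with all arrays, and those that involve F-HE were run again without membrane 59. They move single livers and take no account of tanks, and their p-values are unadjusted. The interaction of STUB1 was -0.06 (95% interval -0.62 to 0.50). By tank, the means of the L-HE tanks lay between 0.81 and 0.91, all under the L-LE tanks at 1.33 to 1.72. Those of the F-HE tanks ran from 0.67 to 1.37 and those of the F-LE tanks from 1.28 to 2.15, which overlapped. The L-LE tank at 1.72 held 2 livers, both on arrays of low correlation (membranes 53 and 56). When the 3 tank means of a group took the place of its livers, the difference was -0.68 but STUB1 was no longer called (adjusted p = 0.457), nor was any other clone. The line difference, which was not used to choose the clone, was 0.16 (95% interval -0.11 to 0.44, adjusted p = 0.999).

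FBXW2 is an F-box protein, the part of a cullin ligase that picks the substrate. In F-HE livers its level had a lowest value of -0.89, a median of -0.32 and a highest of 0.34, and in F-LE livers -0.39, -0.06 and 0.26. In L-HE livers it ran from -1.04 (median -0.67) to -0.21, and in L-LE livers from -0.48 (median -0.29) to 0.41. The highest F-HE value was that of membrane 59, and 6 of the 8 L-HE livers lay below the lowest L-LE liver. The diet difference of FBXW2 was -0.34 (standard error 0.113, adjusted p = 0.772), and without membrane 59 it was -0.38 (standard error 0.105, adjusted p = 0.177), short of the threshold. Within the L line the mean was -0.64 ± 0.287 in L-HE and -0.20 ± 0.309 in L-LE livers (SD, n = 8 each, exact p = 0.00963), and within the F line -0.27 ± 0.366 in F-HE and -0.04 ± 0.233 in F-LE livers (exact p = 0.151, or exact p = 0.0319 without membrane 59). The tank means of the HE groups lay below those of the LE groups in both lines, at -0.35 to -0.13 in F-HE against -0.07 to 0.04 in F-LE, and at -0.80 to -0.24 in L-HE against -0.23 to -0.14 in L-LE.

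Among the clones chosen for diet, FBXW2 had the highest line difference with all arrays only, with F above L by 0.26 (95% interval 0.03 to 0.49, unadjusted p = 0.0261 by limma), which did not pass after adjustment (adjusted p = 0.999). It was 0.22 without membrane 59 (adjusted p = 0.926) and 0.18 without the 6 arrays (95% interval -0.06 to 0.42, adjusted p = 0.781). UB2E1 and 1RT61L10_D_F05, listed for both contrasts, were then higher, at 0.32 and 0.39 without membrane 59 and at 0.38 and 0.64 without the 6 arrays. On the HE diet F was above L by 0.37, where 7 of the 8 F-HE livers were above the median L-HE liver (exact p = 0.043), and on the LE diet by 0.16 (exact p = 0.258). Without membrane 59 the difference on the HE diet was 0.28 (exact p = 0.0864).

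UB2E1 is a conjugating enzyme that carries ubiquitin to the ligases. Its level in F-HE livers had a lowest value of -1.04, a median of 0.92 and a highest of 1.35, and in F-LE livers 0.35, 1.44 and 1.59. In L-HE livers it ran from 0.42 (median 0.63) to 1.01, and in L-LE livers from 0.41 (median 0.87) to 1.26. No F-HE liver was above the median F-LE liver, and 6 of the 8 F-LE livers were above the highest F-HE liver. The lowest value of each F group came from an array of low correlation: membrane 59 at -1.04 and membrane 65 at -0.03 in F-HE, and membrane 62 at 0.35 in F-LE.

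The diet difference of UB2E1 was -0.42 (standard error 0.174, adjusted p = 1), -0.30 without membrane 59 (standard error 0.133, adjusted p = 0.645), and -0.37 without the 6 arrays (standard error 0.0999), where it was called (adjusted p = 0.116). Its line difference was 0.20 (95% interval -0.16 to 0.55), 0.32 without membrane 59 (0.05 to 0.59) and 0.38 without the 6 arrays (0.18 to 0.59), with adjusted p = 0.999, 0.899 and 0.329 by limma. In the 26 livers the means were 1.05 ± 0.3 in F-HE (SD, n = 6) and 1.41 ± 0.242 in F-LE (n = 7), and 0.66 ± 0.189 in L-HE (n = 8) and 1.04 ± 0.269 in L-LE (n = 5). This clone was listed by the study for both contrasts, so neither is independent of its choice.

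PSB7, proteasome subunit beta type 7, is the beta subunit known in mammals and yeast for the trypsin-like activity of the core particle. The clone 1RT61L10_D_F05 had in F-HE livers a lowest level of -0.62, a median of 3.49 and a highest of 3.94, and in F-LE livers 2.37, 3.91 and 4.30. In L-HE livers it ran from 1.65 (median 3.02) to 4.01, and in L-LE livers from 2.97 (median 3.47) to 4.54. In each line 1 of the 8 HE livers was above the median LE liver. Here too the F livers apart from the rest were those of membranes 59 (-0.62) and 65 (1.52) in F-HE and of membrane 62 (2.37) in F-LE, while the other 6 F-HE livers lay between 3.41 and 3.94 and the other 7 F-LE livers between 3.76 and 4.30. The low L-HE livers, at 1.65, 2.18 and 2.25, came from arrays that correlated with the others at 0.9 or more.

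The diet difference of this clone was -0.83 (standard error 0.327, adjusted p = 1), the largest in size of the 7 with all arrays. It was -0.58 without membrane 59 (standard error 0.233, adjusted p = 0.632) and -0.53 without the 6 arrays (standard error 0.197, adjusted p = 0.502), so that it was not called in any of the 3 fits. Its line difference moved further, from 0.14 with all arrays (95% interval -0.53 to 0.81) to 0.39 without membrane 59 (-0.09 to 0.86) and 0.64 without the 6 arrays (0.24 to 1.05), with adjusted p = 0.999, 0.941 and 0.455. The residual SD within groups was 0.974 with all arrays and 0.69 without membrane 59, larger than that of 93.5 and 94.1% of the clones tested.

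The second PSB7 clone, 1RT83D09_B_B05, varied far less. In F-HE livers its level had a lowest value of 0.37, a median of 1.00 and a highest of 1.32, and in F-LE livers 1.11, 1.38 and 1.61. In L-HE livers it ran from 0.77 (median 1.11) to 1.37, and in L-LE livers from 0.91 (median 1.27) to 1.54. In the F line 6 of the 8 F-HE livers were below the lowest F-LE liver, and membrane 59, at 1.08, was one of them. The residual SD was 0.231, larger than that of 3.35% of the clones, and 0.234 without membrane 59, larger than that of 8.3%. The diet difference was -0.29 (standard error 0.0923, adjusted p = 0.643), and -0.30 without membrane 59 (adjusted p = 0.307), and did not pass in either fit. It passed with array weights (-0.29, adjusted p = 0.0768) and with membrane number as a covariate (-0.35, adjusted p = 0.143), and within the F line with array weights (-0.35, adjusted p = 0.0885). Within the F line the mean was 0.95 ± 0.306 in F-HE and 1.38 ± 0.198 in F-LE livers (SD, n = 8 each, exact p = 0.00373), and within the L line 1.07 ± 0.173 in L-HE and 1.22 ± 0.227 in L-LE livers (exact p = 0.166). The interaction, -0.29 (95% interval -0.66 to 0.09, adjusted p = 0.548 by limma), did not pass, so a difference between the lines in the effect of diet was not shown. By tank, the F-HE means of 0.65 to 1.13 lay under the F-LE means of 1.18 to 1.52, and the L-HE means of 0.99 to 1.2 overlapped the L-LE means of 1.14 to 1.27.

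Both PSB7 clones had a lower mean on the HE diet than on LE in each line, without passing the test in any of the 3 fits, and their levels were only weakly related liver by liver. After the mean of each group was taken off, their levels had a Pearson correlation of 0.31 over the 31 livers without membrane 59 (Spearman 0.20), 0.13 over all 32 and 0.18 over 26. The F-LE liver on membrane 62 shows this: it had the lowest F-LE level of the clone 1RT61L10_D_F05, at 2.37, and the highest of the clone 1RT83D09_B_B05, at 1.61. The line difference of 1RT83D09_B_B05, which was not used to choose it, was 0.02 (95% interval -0.17 to 0.21). The sources do not say whether the clones cover the same part of a transcript or the same copy of the gene.

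ECM29 binds the proteasome and, in yeast, helps to hold its core and its regulatory cap together. Its level in F-HE livers had a lowest value of 1.62, a median of 1.93 and a highest of 2.44, and in L-HE livers 0.92, 1.70 and 1.94. In F-LE livers it ran from 1.3 (median 2.20) to 2.79, and in L-LE livers from 1.04 (median 1.48) to 2.62. On the HE diet 4 of the 8 F livers were above the highest L liver, and on the LE diet 7 of the 8 F livers were above the median L liver. The difference between F and L was 0.49 (standard error 0.153, unadjusted p = 0.00303 by limma), rank 16 by p-value of the 7763 clones, and did not pass after adjustment (adjusted p = 0.999). It was 0.51 without membrane 59 (adjusted p = 0.692) and 0.49 without the 6 arrays (adjusted p = 0.455). The means were 1.99 ± 0.309 in F-HE and 1.51 ± 0.422 in L-HE livers (SD, n = 8 each, exact p = 0.0218), and 2.17 ± 0.469 in F-LE and 1.66 ± 0.517 in L-LE livers (exact p = 0.0629). Its diet difference, the contrast that was not used to choose it, was -0.17 (95% interval -0.48 to 0.15, adjusted p = 1) with all arrays, and the interval was -0.60 to 0.02 around -0.29 without the 6 arrays.

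TPP2 is a large cytosolic peptidase that removes tripeptides from the peptides the proteasome releases. In F-HE livers its level had a lowest value of -0.34, a median of -0.18 and a highest of 1.63, and in F-LE livers -0.07, 0.51 and 0.97. In L-HE livers it ran from -0.07 (median 0.02) to 0.08, and in L-LE livers from 0.00 (median 0.52) to 1.12. The 8 L-HE livers lay close together (SD 0.0498), against SDs of 0.37 in F-LE and 0.377 in L-LE, and 6 of the 8 L-LE livers were above all of them. In F-HE, 2 livers were set off from the rest: membrane 59 at 1.63 and membrane 65 at 0.61, with the other 6 between -0.34 and 0.04. Arrays of low correlation also lay high in the LE groups. Membranes 53 (1.12) and 68 (0.62) were the highest in L-LE, and membrane 62 (0.9) came next to the highest in F-LE, while membrane 56 in L-LE was at 0.12.

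The call of TPP2 turned on membrane 59. With all arrays the diet difference was -0.39 (standard error 0.151, adjusted p = 1 by limma), and without membrane 59 it was -0.50 (standard error 0.114, adjusted p = 0.0376), a level with HE 0.709 times that with LE. Without the 6 arrays it was -0.47 (standard error 0.0956, adjusted p = 0.0115), and TPP2 was then also called within the F line alone (-0.61, adjusted p = 0.0726, beside 0.428% of all clones). Leaving out any other array one at a time did not lead to a call. Within the F line the F-HE mean was -0.08 ± 0.325 without membrane 59 (SD, n = 7) and 0.14 ± 0.675 with it (n = 8), against 0.48 ± 0.370 in F-LE livers (n = 8, exact p = 0.0121 without and 0.228 with it). Within the L line the mean was 0.01 ± 0.0498 in L-HE and 0.45 ± 0.377 in L-LE livers (n = 8 each, exact p = 0.00249). Without the 6 arrays the L-LE mean was 0.34 ± 0.292 (n = 5), and the diet difference in L was -0.33 (adjusted p = 0.803 by limma). The L-HE tank means lay between -0.03 and 0.02, under the L-LE tank means at 0.35 to 0.62, while the F-HE tank means of -0.27 to 0.41 overlapped the F-LE tank means of 0.29 to 0.73. The line difference, not used to choose the clone, was 0.08 with all arrays and -0.03 without membrane 59 (95% interval -0.26 to 0.20), so that its sign turned on that array too.

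The order of the 4 group means was the same at the top for all 7 clones, with F-LE the highest. Most of the clones were chosen from the study's list for diet and some from its list for line. The list for diet held mostly transcripts lower with HE, though some were higher. An LE group at the top is therefore not independent of that choice, and the shared order is a description. Below F-LE the order differed. With all arrays STUB1, FBXW2 and TPP2 had L-LE next, then F-HE and then L-HE, both PSB7 clones and UB2E1 had L-LE, L-HE and F-HE, and ECM29 had F-HE, L-LE and L-HE. Most neighbours in these orders were closer than the spread within groups. The exceptions with all arrays, where the step exceeded the pooled SD of the 2 groups, were STUB1 between F-HE and L-LE (0.53 against an SD of 0.415), UB2E1 between F-LE and L-LE (0.40 against 0.383), FBXW2 between F-HE and L-HE (0.37 against 0.329) and the PSB7 clone 1RT61L10_D_F05 between L-HE and L-LE (0.69 against 0.661). Without membrane 59 the steps between neighbours that exceeded the SD were those of STUB1 between F-HE and L-LE (0.44 against 0.39) and of TPP2 between L-HE and L-LE (0.44 against 0.269). The FBXW2 step was then 0.28 against 0.29, and the groups of the other 2 steps were no longer neighbours. Without this array the order of F-HE among the lower groups changed for 1RT61L10_D_F05, UB2E1 and TPP2, with UB2E1 then at 0.90 in F-HE, 0.66 in L-HE and 0.88 in L-LE livers.

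Counted liver by liver, a median of 4.5 of the 7 clones in F-HE livers (lowest 3, highest 6) and of 1 in F-LE livers (0 to 3) lay below their own median over the 32 livers. In L-HE livers the median was 6.5 clones (2 to 7) and in L-LE livers 3 (0 to 7). At least 4 clones were below their median in 5 of the 8 F-HE livers and none of the 8 F-LE livers, and in 7 of the 8 L-HE livers and 4 of the 8 L-LE livers. Most of the 7 clones were chosen from the study's list for diet, so higher counts with HE are not independent of that choice. The counts are descriptions, and no share over all clones is given beside them. The L-LE livers spanned the widest range: the L-LE liver on membrane 45 had all 7 clones below their medians and those on membranes 60 and 66 had none.

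**Figure D3:**
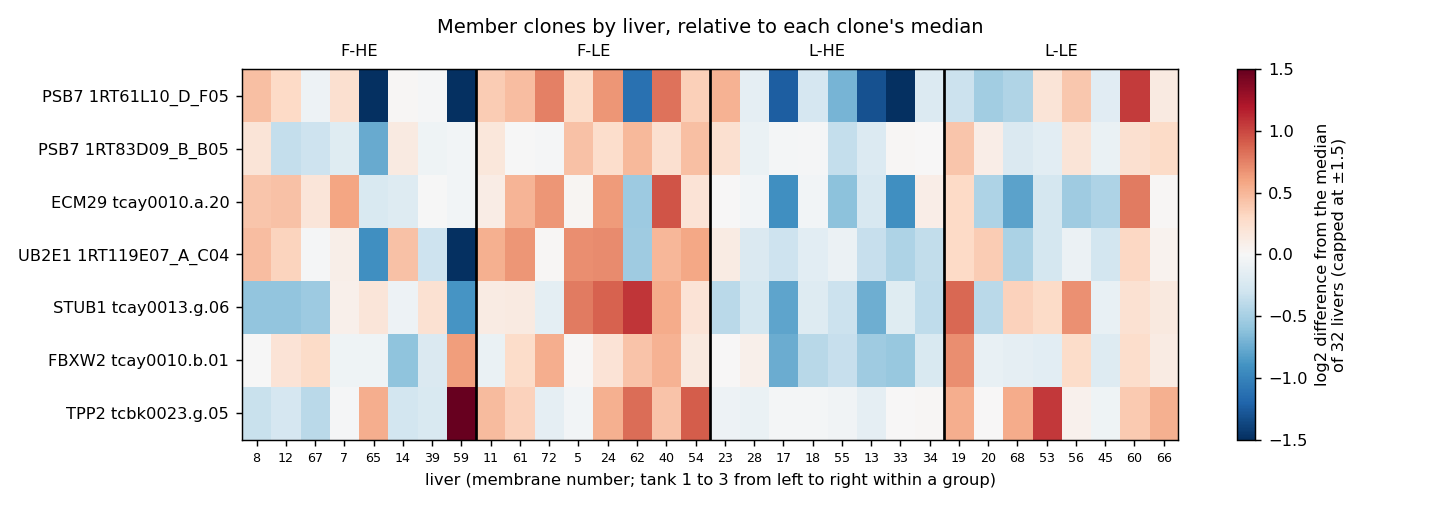
Level of the 7 clones (rows) in each of the 32 livers (columns, by membrane number, ordered by tank within each group), as the log2 difference from the median of the clone over all livers. Blue cells are below and red cells above the median, with the colour capped at ±1.5, and the F-HE liver on membrane 59 is dark blue for the PSB7 clone 1RT61L10_D_F05 and UB2E1 and dark red for TPP2.

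Within groups the clones did not vary as one. Over the 31 livers without membrane 59, the deviations of the PSB7 clone 1RT61L10_D_F05 correlated with those of ECM29 (Pearson r = 0.72) and of UB2E1 (r = 0.66), and those of ECM29 with FBXW2 (r = 0.56). STUB1 and TPP2 had r = 0.40. Over the 26 livers without the 6 arrays, 1RT61L10_D_F05 and ECM29 had r = 0.76 and ECM29 and FBXW2 r = 0.73, while 1RT61L10_D_F05 and UB2E1 had r = 0.31. With membrane 59 included, the same clone had r = 0.82 with UB2E1 and r = -0.68 with TPP2, which was -0.36 without that array and 0.07 without the 6. The livers share tanks, each value pair shares an array, and the identifiers of ECM29 and FBXW2 both begin with tcay0010. These numbers are therefore descriptions only.

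Among the 7504 other clones with a value on each of those 31 arrays, those whose deviations were most like a member's were mostly undescribed. Of the 3 nearest clones of each of the 7, 21 in all, 14 had no description in the study's lists, and their correlations ran from 0.69 to 0.93. The described ones included clones matched to CALCA (r = 0.90) and SAM68 (r = 0.83) for 1RT61L10_D_F05, to TCTA (r = 0.92) for UB2E1, to a dynein light chain, DLC2B (r = 0.91), for ECM29 and to GDF8 (r = 0.84) for STUB1. Of the 21 nearest clones 16 carried the same library prefix in their identifier as the clone they resembled. Those prefixes were shared by 34.6% of the clones compared for the PSB7 clones and UB2E1, by 16.2% for ECM29, STUB1 and FBXW2 and by 24.4% for TPP2. The clone tcay0010.h.07 was among the 3 nearest of both ECM29 (r = 0.89) and FBXW2 (r = 0.72). Its identifier begins with tcay0010, as do those of ECM29, of FBXW2 and of tcay0010.a.02, the nearest clone of ECM29 (r = 0.93). The part of this shared start in the correlations was not tested.

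Of 13 other clones of the ubiquitin and proteasome route that the study's lists describe, none was called for diet, line or interaction in any of the 3 fits. With HE 9 of them had a higher and 4 a lower mean than with LE, with differences from -0.21 to 0.37 and a median of 0.11, against a median of -0.39 for the 7. Without the 6 arrays the differences of the 13 ran from -0.36 to 0.38 with a median of 0.01, against -0.40 for the 7. These 13 and the 3 proteases below, like the 7, carry a name only because the study listed them as changed on these arrays. The medians therefore compare sets chosen by results, are descriptions only, and the 13 are no unselected background for the 7. Over all clones tested 47.1% had a higher and 52.9% a lower mean with HE. The other proteasome core subunits had diet differences of 0.26 for PSB1-A (95% interval -0.22 to 0.75) and -0.16 for PSB6 (-0.76 to 0.44), and 0.02 (-0.14 to 0.18) and 0.12 (-0.15 to 0.39) without membrane 59. The conjugating enzyme UBE2B differed by -0.02 (-0.56 to 0.52), and by -0.28 (-0.48 to -0.08) without membrane 59. Among ligases, IBRD2 differed by 0.24 (0.04 to 0.44), NEURL by 0.34 (0.03 to 0.65) and TRI39 by -0.21 (-0.51 to 0.09). Without the 6 arrays these ligases were at 0.22, 0.31 and -0.36 (adjusted p = 0.412, 0.52 and 0.179 by limma). The deubiquitinating enzymes UBP47 and UBP10, which remove ubiquitin, differed by 0.11 and -0.02 with all arrays. Thimet oligopeptidase (MEPD), which like TPP2 shortens peptides in the cytosol, had the largest difference, 0.37 (0.08 to 0.65, adjusted p = 0.973 by limma), and 0.45 without membrane 59 (adjusted p = 0.153), just short of a call in the direction opposite to that of TPP2. Between the lines the 13 clones ranged from -0.52 (PSB6) to 0.28 with all arrays, and from -0.29 to 0.29 without membrane 59, where PSB6 was at -0.24. PSB1-A was at 0.04 with all arrays and at -0.20 without membrane 59. Without the 6 arrays PSB6 was at -0.35 (adjusted p = 0.511 by limma) and PSB1-A at -0.22 (adjusted p = 0.506). In that fit 6 of the 13 were higher and 7 lower in F. For line an unadjusted p under 0.05 was reached by 7 of the 13, beside 7.25% of all clones. For diet it was also reached by 7, beside 6.7%. The 13 were listed as changed on these arrays, so these counts are descriptions too.

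Of 3 proteases outside this route, the lysosomal cathepsin L (CATL) had a diet difference of -0.60 on the log2 scale with all arrays (95% interval -1.08 to -0.11, adjusted p = 1), and the difference was -0.42 without membrane 59 (-0.78 to -0.06, adjusted p = 0.634). The mitochondrial protease LONM differed by -0.17 with all arrays and by 0.17 without membrane 59, and calpain-9 (CAN9) by 0.10, and none of the 3 was called for diet or line.

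Of 5 clones of liver plasma proteins, which were far above the array median in every group (mean over the 5 of 3.70 to 4.80 outside membrane 59, and 0.50 on it), none was called for diet or line in any of the 3 fits. Without membrane 59 their diet differences were -0.50 for CO3 (95% interval -0.80 to -0.19), 0.40 for APA11 (0.10 to 0.70), 0.03 for TTHY, 0.01 for PLMN and -0.01 for A2MG. Their line differences were then -0.38 for TTHY and for PLMN, -0.25 for A2MG, 0.19 for APA11 and 0.15 for CO3. Of 4 muscle clones 1 was called, parvalbumin (PRVA), lower with HE by 0.53 on the log2 scale (adjusted p = 0.0709) with all arrays and by 0.54 without membrane 59 (adjusted p = 0.0301). The liver, muscle and red cell clones were all taken from the study's lists of transcripts changed on these arrays, so their calls are descriptions and no independent evidence. The other muscle clones had uncalled diet differences without membrane 59 of 0.40 for MYOD2 (95% interval 0.01 to 0.78), 0.06 for TITIN and -0.08 for SMYD1. The mean of the 4 muscle clones ran from 0.28 to 2.48 in F-HE (2.02 to 2.48 without membrane 59), 1.27 to 2.53 in F-LE, 2.14 to 2.55 in L-HE and 1.87 to 2.69 in L-LE livers. Single muscle clones lay far apart, with L-LE means of 4.33 for PRVA, 3.91 for TITIN, 1.32 for MYOD2 and -0.26 for SMYD1. The liver clone APA11 had an L-LE mean of 3.09. Levels are not compared between clones, so none of these means was read as a sign of the cell type. Of 3 red cell clones none was called with all arrays, and ERMAP was without membrane 59, lower with HE by 0.66 (adjusted p = 0.116), and without the 6 arrays by 0.89 (adjusted p = 0.000325). Without membrane 59 B3AT differed the other way, by 0.47 (95% interval 0.16 to 0.79, adjusted p = 0.382), and RHAG by -0.08, and neither was called. The mean of the 3 ran from 0.29 to 1.06 in F-HE (0.67 to 1.06 without membrane 59), 0.88 to 1.18 in F-LE, 0.74 to 1.18 in L-HE and 0.25 to 1.28 in L-LE livers. Water spots held no values, so that no clone could be called absent, and the part of other cell types in the results for the 7 clones was not tested.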

How the data were processed

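Signals of arrays hybridized with radiolabelled liver cDNA were quantified by the authors, who excluded spots with little DNA, corrected each signal for the DNA in its spot, scaled it to the array median and deposited log10 values. Excluded spots, written as a bare 0, were treated as missing (41354 cells), and values were converted to log2. Control spots were left out. Limma 3.58.1 (R 4.3.3) was fitted with 1 mean per group to the 7763 clones measured in 5 or more livers of every group, and p-values were adjusted over all of them, with calls under 0.15, the false discovery rate of the study's methods. Contrasts were HE minus LE, F minus L, the interaction, diet in each line and line on each diet. Single clones were also compared by two-sided exact permutation tests of 8 against 8 livers (12870 relabelings), and of 7 against 8 livers where membrane 59 was left out. The fit was tested on simulated data with independent livers, without arrays of poor quality and without tanks, so that test does not bear on either. Members and lists were chosen with earlier results of these data known. Clone names come from the study's lists, whose ratios and p-values were not used. All 7 members were named whatever their values, and the 13 route clones and 3 proteases were counted. The sources do not say which livers entered the tests of the study, so all 8 per group were used. Alternatives were quantile normalization, re-centring, only clones without missing values, the dimmest 20% of clones left out, a threshold of 0.05, two-way ANOVA at p under 0.01, tank as a random or fixed block, means per tank, array weights, membrane number as a covariate, each array left out and, chosen after seeing the data, the 6 arrays of lowest correlation left out, as was giving medians, spreads and correlations without membrane 59. The number of arrays limits the precision.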

Additional observations from a re-analysis of the deposited data

Results flagged for a closer look

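In 28 tests of a lowest or highest liver within a group, 4 groups for each of the 7 clones, 1 liver was set off from the others of its group by more than Dixon's limit. This was the F-LE liver on membrane 62 for the PSB7 clone 1RT61L10_D_F05, at 2.37 on the log2 scale, with the next F-LE liver at 3.76 (gap over range 0.721). Chance flags about 1 in 20 groups. That array had a median Spearman correlation of 0.828 with the others, the lowest after membrane 59, and the part of array quality in this value was not tested. The values of membrane 59 did not pass the limit for any clone. For TPP2 its gap was 0.519 of the range of the F-HE group, just under the limit of 0.526, and for 1RT61L10_D_F05 and UB2E1 the F-HE liver on membrane 65 lay low as well.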

How the results depend on the processing

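The STUB1 diet call held in each fit that left out 1 array (adjusted p = 0.0122 to 0.0623 by limma) and was lost with means per tank. The number of members called for diet, 1 with all arrays, was 3 with ANOVA (p under 0.01, unadjusted), 0 with means per tank, 6 with array weights, 3 with membrane number as a covariate, 3 without the 6 arrays of lowest correlation, and 1 to 2 with 1 array left out. STUB1 was among them except with means per tank. It was joined by 1RT83D09_B_B05 and FBXW2 with ANOVA, by 1RT83D09_B_B05 and UB2E1 with the covariate, and by every other member but ECM29 with array weights. The count over all clones, 19, was 86 with ANOVA, 0 with tank means, 104 with array weights, 34 with the covariate and 74 without the 6 arrays, was 10 at an adjusted p under 0.05, and 14 to 41 with 1 array left out, where 41 was without membrane 59. For line, 0 members became 1 with ANOVA and 1 with array weights (ECM29 in both), and 0 clones became 53, 12 and, without the 6 arrays, 2 (0 to 1 with 1 array left out). For the interaction 0 clones became 53 with ANOVA and 4 with array weights. The ANOVA counts use an unadjusted p under 0.01, which about 1% of clones pass by chance. By that rate 53 of 7763 clones is no excess, and the 86 called for diet are close to it. The 3 members called for diet with ANOVA all came from the study's list for diet.

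Tank numbers run from 1 to 3 in every group. With the tank number as a replicate block, 1 member and 21 clones were called for diet and 1 clone for the interaction, and the block changed no call of a member for diet, line or interaction. It turned the STUB1 interaction to 0.03. The correlation of livers within a tank, estimated over all clones, was 0.00147. That value does not describe single clones. In F-LE the STUB1 livers lay at 1.09 to 1.38 in tank 1, 1.44 to 1.8 in tank 3 and 2.02 to 2.31 in tank 2. In F-HE, L-HE and L-LE the STUB1 levels of different tanks overlapped.

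Some uncalled differences changed sign. The line difference of the PSB7 clone 1RT83D09_B_B05 was -0.01 with array weights and -0.01 without the 6 arrays (-0.01 to 0.06 with 1 array left out), and that of TPP2 -0.05 and -0.06 (-0.03 to 0.13). With array weights and without the 6 arrays the interaction was 0.39 and 0.30 for 1RT61L10_D_F05 (-0.49 to 0.21 with 1 array left out), 0.16 and 0.16 for ECM29 (-0.16 to 0.07), 0.00 and 0.02 for UB2E1, and -0.25 and -0.28 for TPP2 (-0.12 to 0.16). It was also 0.25 for ECM29 with quantile normalization and 0.02 with the membrane covariate, and for STUB1 0.15 with quantile normalization and 0.01 with means per tank (-0.15 to 0.03). The cause of these changes was not tested. The SAM test named in the study's methods was not run.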
